A study of Homo sapiens with 4 samples.

Results

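The miR-183 cluster, which holds the neighboring genes of miR-183, miR-96 and miR-182, was examined in cortical interneurons, inhibitory nerve cells differentiated here from human embryonic stem cells (hESCs), after culture with or without ethanol. MicroRNAs (miRNAs) are short RNAs that lower the output of the mRNAs they pair with. The members of the cluster were taken by name from the table of mature miRNAs: hsa-miR-183-5p, hsa-miR-183-3p, hsa-miR-96-5p and hsa-miR-182-5p, 4 of the 2656 mature miRNAs listed. The cells were differentiated from a single hESC line, H1, and carried no genetic change. Small RNA-seq libraries were made from 2 cultures kept for 7 days in neuronal maturation medium with ethanol at about 50 to 100 mM and from 2 cultures kept for 7 days without it. The study's methods add a further day without ethanol before the exposed cells were collected. The labels call the libraries replicates and the methods describe the treatments as done in duplicate, so the spread between libraries is that between cultures of 1 line. The comparison asks whether ethanol moved the level of the cluster in these cells.

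The cluster is transcribed as 1 precursor RNA that is cut into the hairpins MIR183, MIR96 and MIR182, and each hairpin can release a miRNA from its 5′ arm (5p) and its 3′ arm (3p). A miRNA recognizes its target mRNAs mainly through its seed, the stretch near its 5′ end. The cluster is best known from sensory cells: it is abundant in photoreceptors, hair cells of the inner ear and sensory neurons, and changes in the seed of miR-96-5p cause an inherited hearing loss.

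The mature sequences are shown because the 3 guide strands differ from each other by few seed bases. They are taken from RefSeq (GRCh38.p14), matched by miRNA name, and bases 2 to 8 are in capitals. All 4 members lie on the minus strand of chromosome 7, at chr7:129774967-129774988 for miR-183-5p, chr7:129774928-129774949 for miR-183-3p, chr7:129774739-129774761 for miR-96-5p and chr7:129770447-129770470 for miR-182-5p. miR-1271-5p, from the plus strand of chromosome 5 (chr5:176367960-176367981), is set beside them as the only other listed miRNA with a RefSeq sequence that shares bases 2 to 8 with a member.
miR-183-5p: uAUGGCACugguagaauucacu
miR-96-5p: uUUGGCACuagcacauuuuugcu
miR-182-5p: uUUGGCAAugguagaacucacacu
miR-183-3p: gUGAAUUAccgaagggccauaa
miR-1271-5p: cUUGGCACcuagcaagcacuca

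Counted from 1 at the 5′ end, with the base of the first-named miRNA written first, miR-183-5p and miR-96-5p differed by A2U within bases 1 to 8, and miR-96-5p and miR-182-5p by C8A. miR-183-5p and miR-182-5p differed by A2U and C8A. Over their whole length, seed included, miR-183-5p and miR-182-5p were the most alike of the 3, with the same base at 18 of 22 positions, against 13 of 22 for miR-183-5p and miR-96-5p and 12 of 23 for miR-96-5p and miR-182-5p. miR-1271-5p and miR-96-5p had the same bases 2 to 8 but matched at 9 of 22 positions. In GENCODE 29 (GRCh38) MIR183 occupied positions 129774905 to 129775014, MIR96 129774692 to 129774769 and MIR182 129770383 to 129770492 of chromosome 7. No other annotated gene overlapped any of the 3 hairpins, so the cluster was intergenic. MIR183 and MIR96 were 135 bases apart and MIR96 and MIR182 4199 bases apart. The nearest annotated gene on either side was NRF1, a protein-coding gene on the plus strand, 13300 bases away, and a long noncoding RNA gene on the minus strand, AC084864.1, 8355 bases away.

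The libraries held between 12100425 and 24858230 counts, and each exposed library was deeper than each unexposed library, so depth and exposure cannot be told apart by design. All 10 neuronal miRNAs of a marker list were tested and detected in every library, among them miR-124-3p, at 2190 to 5406 CPM (counts scaled to a library of 1000000), and miR-9-5p, at 157352 to 254022 CPM. Of 8 miRNAs of undifferentiated stem cells, 3 had no count in any library and the summed level of the 8 was between 2.42 and 3.89 CPM. In bulk RNA, fewer cells of a type and less RNA per cell cannot be told apart.

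In these interneurons the cluster was present mainly as miR-182-5p and miR-183-5p, with far fewer reads of miR-96-5p, and none of these 3 differed between exposed and unexposed cells beyond the spread between cultures. The fourth member, miR-183-3p, was too rare to be tested across miRNAs. All values called levels here are CPM after TMM scaling, which adjusts for the composition of the libraries, and count reads per mature miRNA, each 22 to 24 bases long. miR-182-5p, which ranked 112th by mean level among the 863 miRNAs that passed the filter on low counts, was at 223 and 319 CPM in exposed replicates 1 and 2 and at 427 and 217 CPM in unexposed replicates 1 and 2, an order kept for every miRNA that follows. Its highest and its lowest level both came from unexposed cultures. miR-183-5p, ranked 126th, was at 223 and 277 CPM with ethanol and at 288 and 205 CPM without it. Here again the unexposed libraries enclosed the exposed ones. miR-96-5p, ranked 563rd, was at 2.50 and 2.92 CPM with ethanol and at 2.88 and 1.71 CPM without it, on 63, 71, 34 and 22 counts. Unexposed replicate 2 was the lowest library for each of these 3 miRNAs, while the other libraries of miR-96-5p lay close together. Together the 4 members took 0.0508% and 0.0587% of the counts with ethanol and 0.0608% and 0.0451% without it.

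**Figure D1:**
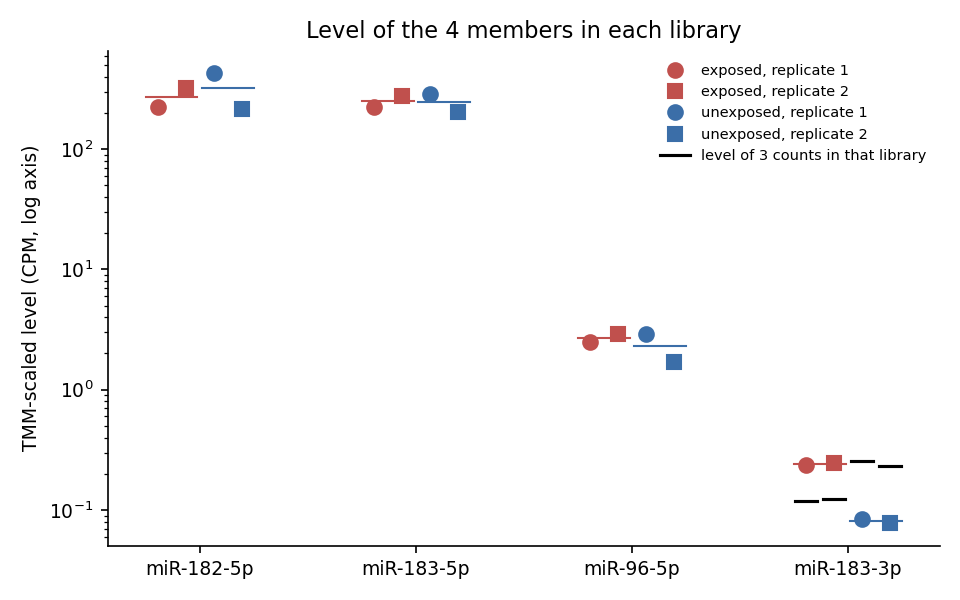
Level of each member in each library, in CPM after TMM scaling on a log axis, with exposed libraries in red, unexposed libraries in blue, replicate 1 as circles and replicate 2 as squares; colored lines are group means of 2 libraries and black dashes the level of 3 counts in each library. miR-182-5p and miR-183-5p lie between 205 and 427 CPM, miR-96-5p between 1.71 and 2.92 CPM, and miR-183-3p is above the level of 3 counts in the exposed libraries only.

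The order of the levels was the same in every library except for a tie. miR-182-5p and miR-183-5p had 5614 counts each in exposed replicate 1, and miR-182-5p had 7768, 5039 and 2790 counts against 6744, 3401 and 2640 of miR-183-5p in the others. The group means of these neighbors were 271 ± 68.2 CPM against 250 ± 38.5 CPM in the exposed and 322 ± 149 CPM against 247 ± 58.8 CPM in the unexposed cells (SD, n = 2). Both were counted in the same libraries, so these SDs do not measure the spread of their difference. Within the libraries, miR-182-5p had 1.00 and 1.15 counts for each count of miR-183-5p with ethanol and 1.48 and 1.06 without it. miR-96-5p was far below both, at 2.71 ± 0.296 CPM in the exposed and 2.30 ± 0.829 CPM in the unexposed cells (SD, n = 2). miR-183-3p, the other arm of MIR183, was lower again, with 6 counts in each exposed library and 1 count in each unexposed library.

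By edgeR's quasi-likelihood test, 0 of the 3 members that passed the filter had an unadjusted P under 0.05, as 4.52% of the 863 miRNAs had. After Benjamini-Hochberg adjustment 0% of all miRNAs passed 0.05, in edgeR, limma-voom and DESeq2 alike, where 39, 31 and 28 miRNAs were under 0.05 before adjustment. For miR-183-5p the log2 fold change (exposed minus unexposed) was 0.018, with a standard error of 0.25 and a 95% interval of -0.57 to 0.60, which is 0.675-fold to 1.52-fold. edgeR's adjusted p was 0.988. For miR-182-5p the log2 fold change was -0.25, with a standard error of 0.34 and an interval of -1.05 to 0.55, or 0.484-fold to 1.46-fold (edgeR, adjusted p = 0.968). For miR-96-5p it was 0.24, with a standard error of 0.36 and an interval of -0.58 to 1.07, or 0.668-fold to 2.10-fold (edgeR, adjusted p = 0.968). A 2-fold higher level in exposed cells therefore lay outside the interval of miR-183-5p and of miR-182-5p but inside that of miR-96-5p, and a 2-fold lower level lay outside the intervals of miR-183-5p and miR-96-5p but inside that of miR-182-5p. Two-sided exact permutation tests gave 1 for miR-183-5p and miR-182-5p and 0.667 for miR-96-5p, where 2 cultures against 2 cannot give less than 0.333.

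**Figure D2:**
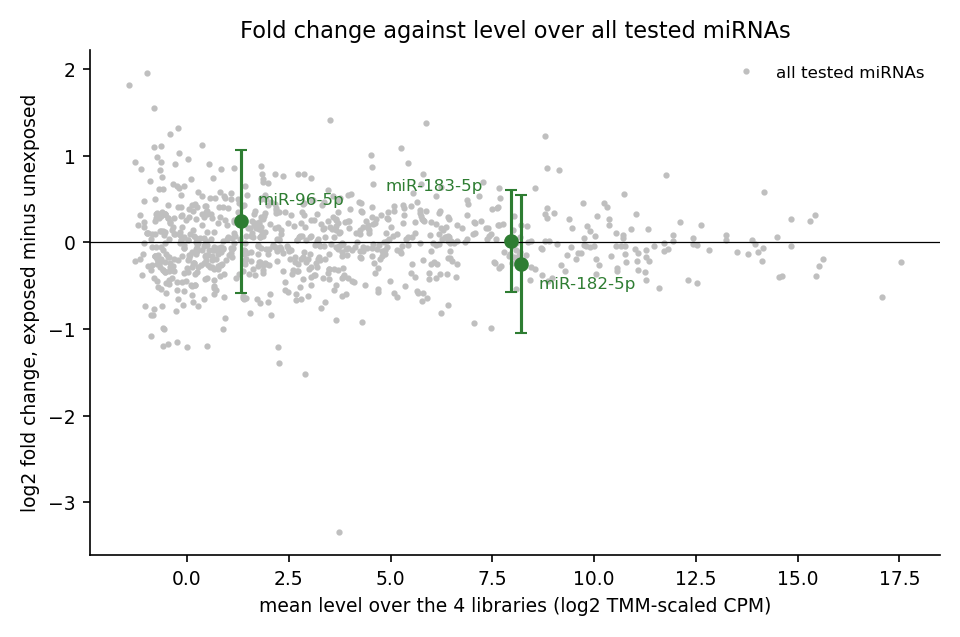
Log2 fold change (exposed minus unexposed, from edgeR) against mean level (log2 CPM after TMM scaling) for the 863 tested miRNAs in gray, with the 3 tested members in green and their 95% intervals. All 3 intervals cross 0, and the points of the members lie among those of other miRNAs of like level.

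The scaling bears on whether the groups overlap. After TMM scaling the exposed and unexposed libraries overlapped for each of the 3 tested members, while they did not overlap for 33.4% of all tested miRNAs. Before TMM scaling miR-183-5p stood at 253 and 271 CPM with ethanol and at 244 and 218 CPM without it, and miR-96-5p at 2.83 and 2.86 CPM against 2.44 and 1.82 CPM. In these unscaled values 2 of the 3 members were higher in both exposed libraries than in both unexposed libraries, as were 23.5% of all tested miRNAs. The counting error of miR-96-5p was wider than that gap, since the 95% Wilson interval ran from 2.22 to 3.63 CPM in exposed replicate 1 and from 1.75 to 3.41 CPM in unexposed replicate 1. Tested with library size only, the log2 fold change was 0.18 for miR-183-5p and 0.41 for miR-96-5p, both under 1 standard error (0.30 and 0.42). Without TMM factors the median over all miRNAs moved to 0.14, and with upper quartile scaling, where miR-183-5p turned to -0.082, it moved to -0.12.

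The unexposed cultures decided the direction for miR-182-5p. They lay 0.98 apart on the log2 scale, against 0.52 for the exposed cultures, and only 6 of the 163 miRNAs with a mean of at least 100 CPM had unexposed cultures at least this far apart, itself included. Without unexposed replicate 1 the log2 fold change of miR-182-5p was 0.31 ± 0.28 (SE), and without unexposed replicate 2 it was -0.69 ± 0.28 (SE). The latter passed an unadjusted P of 0.05 in edgeR, at 0.0134, but not after adjustment (adjusted p = 0.208). In these fits the remaining library of a group is assumed to vary like the other group. miR-183-5p likewise took opposite signs, at 0.28 without unexposed replicate 1 and -0.24 without unexposed replicate 2, and -0.14 without exposed replicate 2. miR-96-5p was at 0.65 without unexposed replicate 1 and at -0.13 without unexposed replicate 2.

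**Figure D3:**
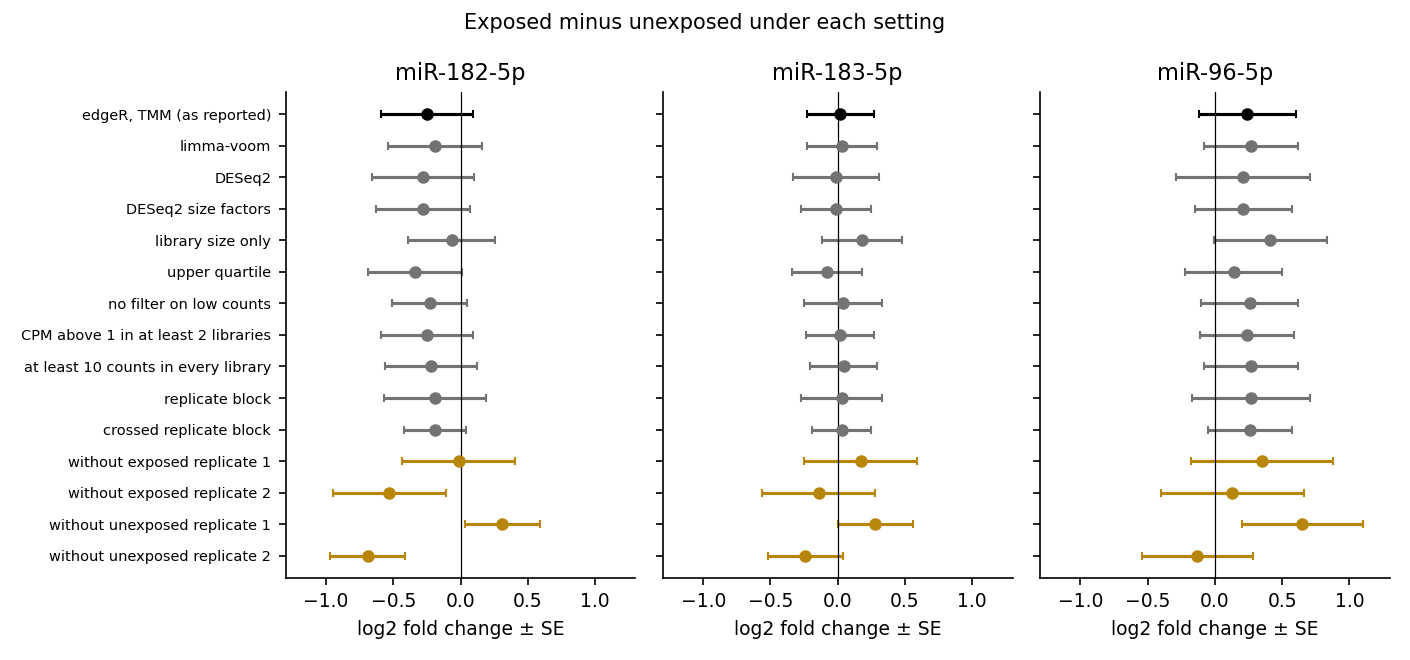
Log2 fold change (exposed minus unexposed) with its standard error for miR-182-5p, miR-183-5p and miR-96-5p under each test, scaling and filter with all 4 libraries (black and gray) and with 1 library left out (gold). With all libraries miR-182-5p stays below 0 and miR-96-5p above 0, while leaving out unexposed replicate 1 or 2 moves miR-182-5p to 0.31 or -0.69.

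The make-up of the cluster was compared within each library, where library size and scaling cancel. miR-182-5p made up 49.7% and 53.2% of the members' counts with ethanol and 59.5% and 51.2% without it. miR-183-5p made up 49.7% and 46.2% against 40.1% and 48.4%. Unexposed replicate 1 thus stood apart from the other 3 libraries, with 1.48 counts of miR-182-5p for each count of miR-183-5p, where the others had 1.00 to 1.15. The counting error was small beside this difference: the 95% Wilson interval of the miR-182-5p share was 58.4 to 60.5% in that library and 49.8 to 52.5% in unexposed replicate 2. Between groups the share of miR-182-5p was 51.5 ± 2.51% in exposed and 55.3 ± 5.86% in unexposed cells (SD, n = 2, exact permutation p = 0.667), and that of miR-183-5p 48.0 ± 2.45% and 44.3 ± 5.86% (SD, n = 2, exact permutation p = 0.667). The shares of miR-182-5p and miR-183-5p make up nearly all of the members' counts, so they mirror each other and are not separate results. Without unexposed replicate 1 the share of miR-182-5p was 0.306 percentage points higher with ethanol, against a difference of -3.84 points over all libraries.

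miR-96-5p, the member tied to hearing loss, held 0.558% and 0.487% of the members' counts with ethanol and 0.401% and 0.403% without it. Both exposed libraries were above both unexposed libraries, a difference of 0.12 percentage points. The Wilson intervals overlapped, from 0.436 to 0.713% and 0.386 to 0.613% with ethanol and from 0.287 to 0.560% and 0.267 to 0.610% without it, and the exact permutation p was 0.333, the smallest that 2 against 2 allows. The log2 ratio of miR-183-5p to miR-96-5p counts was 6.48 and 6.57 with ethanol and 6.64 and 6.91 without it, which differed by -0.25 between the group means (exact permutation p = 0.333). Without molecular identifiers these intervals cover counting error only.

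**Figure D4:**
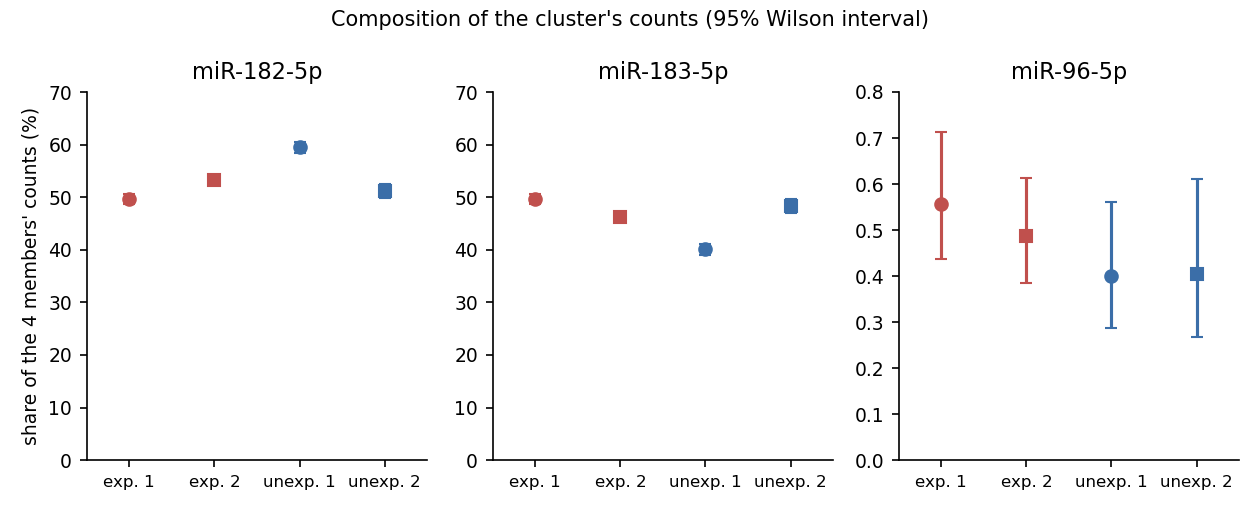
Share of miR-182-5p, miR-183-5p and miR-96-5p in the summed counts of the 4 members, in percent, for each library (exp., exposed, in red; unexp., unexposed, in blue), with 95% Wilson intervals and a separate scale for miR-96-5p. Unexposed replicate 1 holds 59.5% miR-182-5p, above the other libraries, and the intervals of miR-96-5p overlap across all 4 libraries.

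The groups did not overlap for miR-183-3p, at 0.238 and 0.247 CPM with ethanol and 0.0848 and 0.0777 CPM without it, on 6, 6, 1 and 1 counts (exact permutation p = 0.333). Nor did they overlap for 33.4% of the 863 tested miRNAs. Those passed the filter on low counts and miR-183-3p did not, so that share does not describe miRNAs this rare. For miR-182-3p, also rare, on 0, 1, 1 and 1 counts, the groups did not overlap in the opposite direction. Exposed replicate 2 and both unexposed libraries held 1 count each there, so that order rested on library size and scaling. Before scaling, the 12 counts of miR-183-3p in the exposed libraries together made 0.255 CPM and its 2 counts in the unexposed libraries 0.0768 CPM. The ratio of 3.32 had an exact 95% interval of 0.739 to 30.5 for counting error alone, so no difference was detectable at this depth. The level of 3 counts, taken as the least that can be told from 0, stood before scaling at 0.135 and 0.121 CPM for the exposed cultures and at 0.215 and 0.248 CPM for the unexposed ones. Both unexposed libraries were below it.

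All 3 hairpins gave reads almost only from the 5p arm. Summed over the 4 libraries, MIR183 gave 18399 counts of the 5p arm and 14 of the 3p arm, MIR182 gave 21211 and 3, and MIR96 gave 190 and 1. The 5p arm thus held 99.9% of the reads of MIR183, 99.99% of those of MIR182 and 99.5% of those of MIR96. One-sided use of a hairpin was common in these cells: of the 106 listed pairs of arms with at least 10000 counts, 47.2% had 99% or more of their counts on 1 arm. In that set 20 pairs were at least as one-sided as miR-183 and 12 at least as one-sided as miR-182, with these pairs counted. Per library, miR-183-5p had 936 and 1124 counts for each count of miR-183-3p with ethanol and 3401 and 2640 without it, the latter resting on 1 count of miR-183-3p each. The log2 ratio differed by -1.55 between group means (exact permutation p = 0.333), or by -0.77 with 1 added to each count.

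The remaining arms, miR-96-3p and miR-182-3p, were at the limit of detection. miR-182-3p had 1 count in each library except exposed replicate 1, where it had 0. miR-96-3p had 1 count in unexposed replicate 1 and 0 in the others, which allows up to 0.135 and 0.121 CPM in the exposed libraries and 0.248 CPM in unexposed replicate 2.

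**Figure D5:**
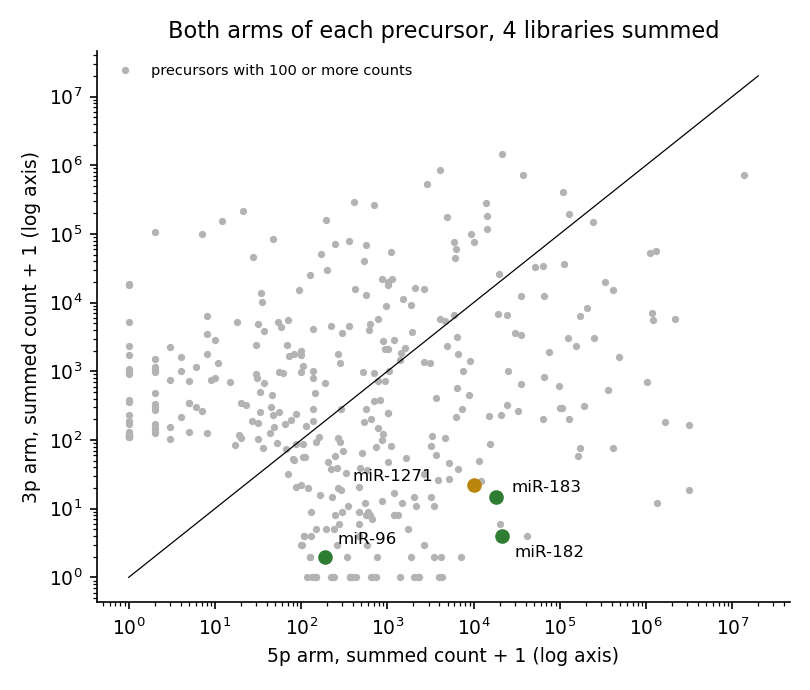
Counts of the 5p arm against those of the 3p arm, summed over the 4 libraries with 1 added, on log axes, for each of the 362 listed pairs of arms with at least 100 counts; the line marks equal counts. The pairs of the cluster (green) and miR-1271 (gold) lie far below the line, with 14, 1 and 3 counts on the 3p arms of miR-183, miR-96 and miR-182.

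The gap between miR-96-5p and its neighbors was wide next to that of the other pairs of nearby hairpins compared. Among 54 pairs of miRNA genes that follow each other within 10 kb on 1 strand and whose main arm averaged at least 1 CPM and comes from 1 gene, the main arms differed by a median of 2.49 on the log2 scale. miR-96-5p differed by 6.63 from miR-183-5p and by 6.86 from miR-182-5p. Of the 54 pairs, 6 were at least as far apart as the first and 5 at least as far as the second, these pairs included. The cut at 1 CPM leaves out pairs with a rarer main arm, which can lie further apart, so these ranks hold for the 54 pairs only. Genes that were not listed or share a main arm with another gene were skipped before pairing. These are differences in reads per mature miRNA of 21 to 24 bases.

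miR-1271-5p, which has the same seed as miR-96-5p, was counted far more often than miR-96-5p. Its level was 148 and 130 CPM with ethanol and 164 and 93.4 CPM without it, a mean of 139 ± 12.6 CPM and 129 ± 49.8 CPM (SD, n = 2). The groups overlapped, with the unexposed libraries again the highest and the lowest. There were 59.1 and 44.5 counts of miR-1271-5p for each count of miR-96-5p with ethanol and 56.9 and 54.6 without it. Its log2 fold change was 0.11, with a standard error of 0.30 and an interval of -0.58 to 0.80 (edgeR, adjusted p = 0.983). The reads of this seed thus belonged mostly to miR-1271-5p in every library.

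The members were also set beside the miRNAs with the most similar profile over the libraries. Likeness was taken as the root mean square difference of log2 levels after centering each miRNA on its own mean over the 4 libraries, among miRNAs with a mean level of at least 10 CPM. The nearest to miR-183-5p were let-7c-5p, miR-374b-3p and let-7a-5p, at differences of 0.0205, 0.0251 and 0.0416, and miR-182-5p was 116th of 375, at 0.217, where the median was 0.282. The nearest to miR-182-5p were miR-452-5p, miR-200c-3p and miR-5002-5p, at 0.0540, 0.0571 and 0.0574, and miR-183-5p was 41st of 375. The nearest to miR-96-5p were miR-488-5p, miR-137-3p and miR-5010-3p, at 0.0565, 0.0947 and 0.101, with miR-183-5p 23rd and miR-182-5p 107th of 376. Neither miR-183-5p nor miR-182-5p was among the 3 nearest of another member, on 4 libraries that share their scaling factors. miR-96-5p, with a mean level under 10 CPM, could not be listed as a neighbor of either.

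miR-204 and miR-211, which like this cluster are regulated by light in the retina, were set beside it. miR-204-5p was at 787 and 980 CPM with ethanol and at 868 and 949 CPM without it, which made a log2 fold change of -0.04 ± 0.22 (SE), between -0.14 and 0.09 over the settings with all libraries. It was more abundant than any member of the cluster, and its groups overlapped. Of the 4 arms, 3 were tested and 0 had a P under 0.05 in edgeR, against 4.52% of all tested miRNAs. Their median log2 fold change was that of miR-211-5p, 0.26 ± 0.29 (SE), against -0.01 over all miRNAs. miR-204-3p was at 0.47 ± 0.44 (SE). The groups overlapped for both of these arms. miR-211-3p was too rare to be tested.

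Among 5 miRNAs of the miR-200 family, which marks epithelial cells, 4 were tested and all 4 had a negative log2 fold change, as had 442 of the 863 tested miRNAs, with a median of -0.50. The fifth, miR-141-3p, was too rare to be tested and had 6 and 3 counts with ethanol against 0 and 1 without it, the opposite order. The direction of miR-429, at -0.06 ± 0.38 (SE), was not stable, since it ranged from -0.17 to 0.10 over the settings with all libraries. miR-200a-3p was at 2.46 and 2.79 CPM with ethanol and at 4.32 and 4.20 CPM without it. Its log2 fold change was -0.70 ± 0.30 (SE), with an unadjusted P of 0.0487 in edgeR (adjusted p = 0.922, exact permutation p = 0.333), and the unadjusted P was under 0.05 in 6 of the 11 settings with all libraries. These 11 settings include the crossed replicate block, which sets each exposed library beside the unexposed library of the other number. That block was chosen after the data were seen. miR-200b-3p was at 23.3 and 32.6 CPM against 47.1 and 39.2 CPM, a log2 fold change of -0.63 ± 0.28 (SE), whose unadjusted P missed 0.05 in the reported test and was under it in 3 of the 11 settings. miR-200c-3p, the second nearest profile to miR-182-5p, was at 53.7 and 75.7 CPM against 111 and 56.0 CPM, a log2 fold change of -0.36 ± 0.36 (SE) that was 0.20 at its highest with 1 library left out. Its high library was unexposed replicate 1, as for miR-182-5p. The summed level of the 5 was 81.1 and 112 CPM with ethanol and 163 and 101 CPM without it, and its part in the level of miR-182-5p was not tested.

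Of the 8 miRNAs of undifferentiated stem cells, 2 were tested and 0 had a P under 0.05 in edgeR, against 4.52% of all tested miRNAs. miR-302b-3p was at 1.23 and 1.27 CPM with ethanol and at 1.78 and 2.02 CPM without it, and miR-367-3p, miR-371a-3p and miR-373-3p had 0 counts throughout. Of 5 glial and leukocyte miRNAs, miR-338-3p alone was tested, at 3.53 and 3.12 CPM against 2.20 and 2.33 CPM (log2 fold change 0.55 ± 0.31, SE). miR-223-3p and miR-142-3p had 0 counts in every library. The list left out more abundant arms of the glial miRNAs. On average over all libraries miR-338-5p was at 198.5 CPM, miR-219a-1-3p at 186.6 CPM and miR-219a-2-3p at 87.55 CPM. The 10 neuronal miRNAs had a median log2 fold change of 0.03, with 5 above and 5 below 0. Of these, miR-124-3p alone had a P under 0.05 in edgeR, against 4.52% of all tested miRNAs. Its log2 fold change was 0.77 ± 0.30 (SE), with an unadjusted P of 0.0316 in edgeR (adjusted p = 0.922, exact permutation p = 0.333). The unadjusted P of miR-124-3p was under 0.05 in 11 of the 11 settings with all libraries, and the adjusted p in none. With 1 library left out its log2 fold change ran from 0.39 to 1.08. miR-7-5p went the other way, at -0.64 ± 0.35 (SE), and its unadjusted P was under 0.05 in 2 of the 11 settings with all libraries.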

How the data were processed

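Small RNA-seq libraries of 4 cultures were compared, 2 exposed and 2 unexposed, grouped by sample title. The authors built NEBNext libraries, processed reads with CAP-miRseq and deposited raw counts per mature miRNA, without normalization. The submitters' processing notes name hg19, and the version of CAP-miRseq is not given in the sources used here. How reads matching several miRNAs were counted is also not given there. The counts carry no coordinates, so positions were matched by name in RefSeq and GENCODE 29 (GRCh38). A RefSeq mature sequence was found for 2367 of the 2656 names and for all 4 members.

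The counts were analyzed in R 4.3.3 with edgeR 4.0.16: filterByExpr by group (minimum count 10, minimum total 15), TMM, the quasi-likelihood test without covariates, and Benjamini-Hochberg adjustment over the 863 miRNAs kept. Standard errors and 95% intervals of log2 fold changes come from edgeR's F statistic. The fit was tested on simulated data. The comparison was repeated with DESeq2 1.42.0 and limma-voom (limma 3.58.1), other scalings and filters, a replicate block, and each library left out. Depth ranged from 12100425 to 24858230 counts. For single libraries, 95% Wilson intervals are given, which hold counting error alone.

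The members and lists were chosen with earlier results of these data known. The miRNAs named are the members, the other arms of their hairpins, miRNAs sharing bases 2 to 8 with a member, the lists, and for each tested member the 3 nearest profiles among miRNAs with at least 10 CPM. Further arms of miR-338 and miR-219a, outside the lists, are named as well. The comparisons with other arm pairs and nearby hairpins were added after the counts were seen.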

Additional observations from a re-analysis of the deposited data

How the results depend on the processing

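With all 4 libraries, no test, scaling or filter gave a P under 0.05 for a tested member: P ranged from 0.549 to 0.959 for miR-183-5p, from 0.346 to 0.835 for miR-182-5p and from 0.342 to 0.706 for miR-96-5p. The log2 fold change of miR-183-5p was -0.016 with DESeq2 and with DESeq2's size factors and -0.082 with upper quartile scaling. With 1 library left out it ranged from -0.24 to 0.28 for miR-183-5p, from -0.69 to 0.31 for miR-182-5p and from -0.13 to 0.65 for miR-96-5p. For miR-182-5p the unadjusted P without unexposed replicate 2 was 0.0134 (adjusted p = 0.208), and the cause was not tested. The difference in the log2 ratio of the MIR183 arms was -0.77 with 1 added to each count, and with no filter on low counts miR-183-3p, with 1 count in each unexposed library, came to 1.52 ± 1.11 (SE, edgeR, adjusted p = 0.932).

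The number of miRNAs with a P under 0.05 in edgeR, 39, was 94 with no filter, where 6 had an adjusted p under 0.05, and from 12 to 109 with 1 library left out (12 without exposed replicate 1, 99 and 109 without unexposed replicates 1 and 2). After adjustment there were 1 and 5 without exposed replicates 1 and 2 and 18 and 15 without unexposed replicates 1 and 2, 0 of them members, against 0 in every fit to all libraries but that with no filter. Past a fold change of 2 as well there were 20, against 10 with DESeq2, 49 with no filter, 12 with CPM above 1 in at least 2 libraries, 11 with at least 10 counts in every library, and 10 to 44 with 1 library left out (10 and 40 without exposed replicates 1 and 2, 42 and 44 without unexposed replicates 1 and 2). With the replicate number as a block (replicate block) 25 had a P under 0.05. The labels share replicate numbers, but same-numbered libraries deviated with a correlation of -0.186 across 863 miRNAs, so the numbers were not taken to pair the cultures. The crossed replicate block, chosen after seeing the data, gave 59 with a P under 0.05. Counts of 34 and 22 for miR-96-5p and of 1 for miR-183-3p in the unexposed libraries limit what these depths can show.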
